A study of Homo sapiens with 4 samples.

Results

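The genes of glycolysis, lactate handling and the pentose phosphate pathway were examined as one module. Its members were listed by gene symbol, with earlier results of these data known. Of 31 listed genes, 30 were found by symbol among the 59050 genes of the count table, and PGLS was not analysed here. By role, 20 belong to glycolysis, from glucose uptake to pyruvate kinase, 4 to lactate, 1 (PGM1) to the link with glycogen and 5 to the pentose phosphate pathway. All 30 had enough counts to be tested.

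Glycolysis splits glucose into pyruvate in the cytosol and yields ATP without oxygen. Lactate dehydrogenase then turns pyruvate into lactate, which leaves the cell through monocarboxylate transporters, and the pentose phosphate pathway diverts glucose 6-phosphate to make NADPH and ribose. Undifferentiated human pluripotent stem cells are known for a high glycolytic rate, and many glycolytic genes are known targets of the hypoxia-inducible factors.

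The 4 RNA-seq libraries come from HUES8 cells, which are an embryonic stem cell line of human origin, kept on Matrigel in mTeSR1 medium. No differentiation step is given for them. ES-1 and ES-2 carry the genotype label WT, and CPT2KO-1 and CPT2KO-2 the label CPT2 KO. CPT2 is the mitochondrial carnitine palmitoyltransferase of long-chain fatty acid oxidation, and the design compares the stem cells with their CPT2 knockout derivatives. The treatment label reads WT for all 4 libraries, and neither the way the knockout was made, the number of clones, nor whether replicates are separate cultures is given. The p-values thus reflect library-to-library spread alone, and that spread could be technical.

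Library totals ranged from 16887789 to 20460031 counts. ES-1 stood apart from the other libraries. The chi-square per degree of freedom over genes was 39.6 between ES-1 and ES-2 and 45.8 and 53.3 between ES-1 and the libraries labelled CPT2 KO, while the 3 pairs without ES-1 gave 10.5 to 12.6. Mitochondrially encoded genes took 4.15% of the counts in ES-1 and 7.21% to 7.84% in the others. Levels are given in CPM, the counts of a gene scaled to a common library total. The 8 listed markers of undifferentiated stem cells summed to 8154 to 9780 CPM in each library, and 1 of them, ZFP42, was called higher in the libraries labelled CPT2 KO (85.8 and 101.6 CPM in ES-1 and ES-2, 177.7 and 190.9 in the others, log2 fold change 0.98, edgeR adjusted p = 0.0164). Of the fibroblast markers COL3A1, DCN and LUM had at most 7 counts anywhere, though the 8 listed genes summed to 438 to 511 CPM. Mesendoderm markers summed to 6.59 and 7.82 CPM in ES-1 and ES-2 and to 297.7 and 80.7 in CPT2KO-1 and CPT2KO-2, with FGF8 and NODAL called higher. The 6 listed neuroectoderm markers summed to 40.5, 34.7, 42.6 and 29.9 CPM in ES-1, ES-2, CPT2KO-1 and CPT2KO-2. Of the 5 tested, 3 had negative and 2 had positive log2 fold changes. Among them SOX1 and SIX6 were called lower, from at most 6.31 CPM. CPT2 itself ran against the labels, with 52 and 72 counts in ES-1 and ES-2 and 233 and 170 in CPT2KO-1 and CPT2KO-2 (log2 fold change 1.78, edgeR adjusted p = 0.0218), so each difference is stated between libraries as labelled.

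Transcripts of the module were most abundant in ES-1, and no member was called between the genotypes in the fit of all 4 libraries with genotype as its only term. The 30 genes together took 2.38% of the counts in ES-1, 1.11% in ES-2, 1.17% in CPT2KO-1 and 1.11% in CPT2KO-2, with exact 95% intervals for counting error of 2.37% to 2.39%, 1.11% to 1.12%, 1.17% to 1.18% and 1.11% to 1.12%. In bulk libraries, fewer cells of a type and less RNA per cell cannot be told apart. ES-1 was about 2 times as high as each of the others, and the other 3 lay close together across both genotypes. ES-1 was the highest library for 24 of the 30 members, against 31.8% of all tested genes. It exceeded ES-2 at least 1.5-fold for 21 members, against 11.4% of all tested genes, and at least 2-fold for 16, against 4.94%.

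In that fit, the one described as having 4 libraries, edgeR's quasi-likelihood test with Benjamini-Hochberg adjustment called 0 members, and 0.416% of all 17564 tested genes were called in either direction. The log2 fold change (label CPT2 KO over label WT) was negative for 25 members and positive for 5, with a median of -0.49 (0.0017 over all tested genes). At an unadjusted p under 0.05 there was 1 member, HK1, and DESeq2 also called 0. Both WT libraries lay above both libraries labelled CPT2 KO for 7 members, against 19.8% of all tested genes, and both lay below for 4, against 21.1%. As shares of the members these are 23.3% and 13.3%, so neither count stood far above its background.

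The result turned on which WT library was kept. Without ES-2, where ES-1 alone stands for the WT label, 19 of 30 members were called lower and 0 higher in the libraries labelled CPT2 KO, while 3.84% of all tested genes were called lower. The called members were 17 of the 20 glycolysis genes, LDHA and PGM1, and the glycolysis genes not called were SLC2A1, PFKFB2 and PFKFB4. The median over members was then -0.82, against 0.0089 over all tested genes. Without ES-1, 0 members were called (0.848% of all tested genes were, in either direction; 3 members had an unadjusted p under 0.05), 21 log2 fold changes were positive and 9 negative, and the median was 0.082. These fits share both libraries labelled CPT2 KO, and each assumes that its single WT library varies like the others.

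**Figure D1:**
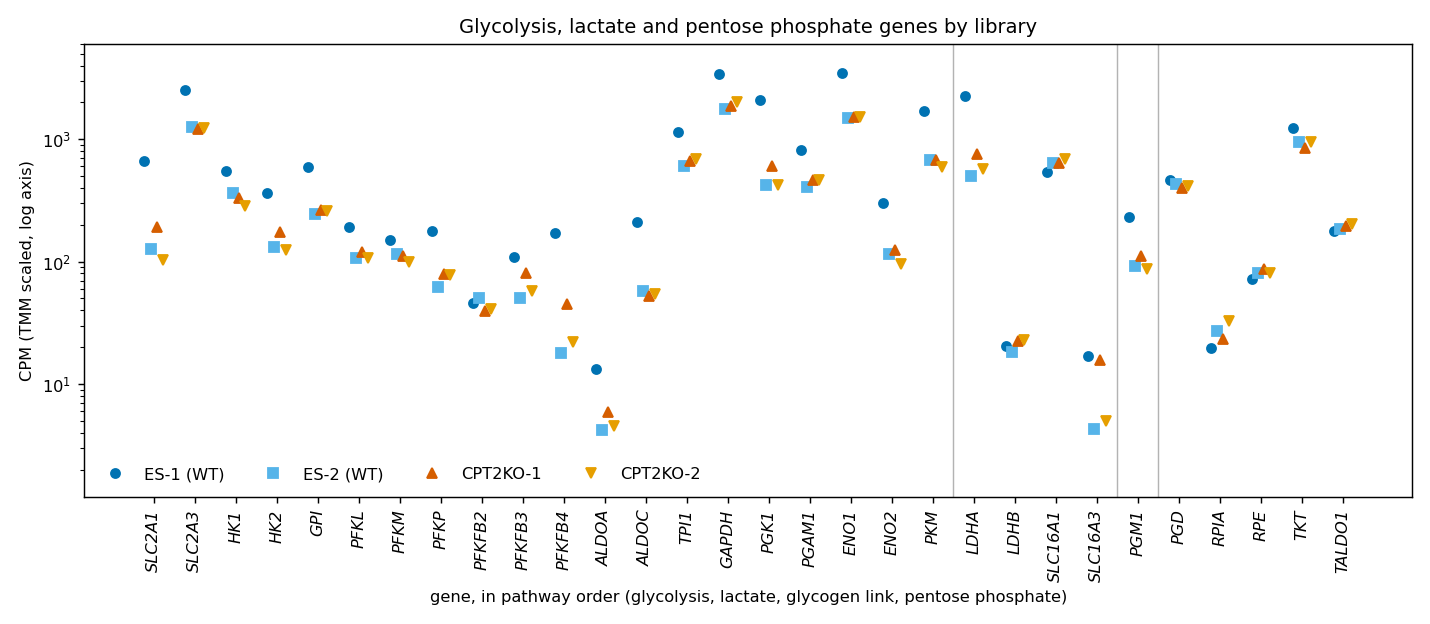
Level of each of the 30 genes in each library, as TMM-scaled CPM on a log axis, with genes in pathway order and grey lines between glycolysis, lactate, the glycogen link and the pentose phosphate pathway. Each point is 1 library. The ES-1 circle lies above the other 3 points for 19 of the 20 glycolysis genes, and for 2 of the 5 pentose phosphate genes.

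Glucose uptake differed between its transporters. SLC2A1 (GLUT1), a widely expressed and hypoxia-inducible transporter, stood at 659, 128, 190 and 104 CPM (TMM-scaled) in ES-1, ES-2, CPT2KO-1 and CPT2KO-2. ES-1 was 5.15-fold above ES-2, and CPT2KO-1 was 1.83-fold above CPT2KO-2, so the genotypes overlapped (log2 fold change -1.42, SE 1.11, edgeR adjusted p = 0.768). SLC2A3 (GLUT3), a high-affinity transporter, stood at 2526, 1268, 1215 and 1245 CPM in the same order. Only ES-1 was set apart, and the log2 fold change was -1.04 without ES-2 (SE 0.16, edgeR adjusted p = 3e-06) and -0.045 without ES-1 (edgeR adjusted p = 0.9997). Per unit of length, SLC2A3 was the larger of both in every library, at 734 TPM (counts corrected for gene length and for the library total) against 95.1 for SLC2A1 in ES-2.

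Hexokinases, which trap glucose as glucose 6-phosphate, showed a similar contrast between isozymes. HK1, the housekeeping isozyme, had 551, 362, 334 and 285 CPM in ES-1, ES-2, CPT2KO-1 and CPT2KO-2. Both WT libraries lay above both others, and HK1 had the lowest adjusted p of the module with 4 libraries (log2 fold change -0.56, SE 0.19, edgeR adjusted p = 0.425). HK2, the inducible isozyme, had 361, 131, 176 and 124 CPM, with ES-2 between the libraries labelled CPT2 KO. Its log2 fold change was -1.27 without ES-2 (edgeR adjusted p = 1.05e-06) and 0.20 without ES-1 (edgeR adjusted p = 0.9997). GPI, which isomerises glucose 6-phosphate to fructose 6-phosphate, had 589 CPM in ES-1 and 246 to 262 CPM in the others.

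The 3 phosphofructokinase genes, whose products catalyse the committed step, differed in how far ES-1 stood out. PFKP, the platelet isoform, had 176, 61.5, 79.9 and 77.8 CPM in ES-1, ES-2, CPT2KO-1 and CPT2KO-2, and ES-1 was 2.87-fold above ES-2. For PFKL, the liver isoform, that ratio was 1.78, and for PFKM, the muscle isoform, it was 1.30. All 3 were called lower in the libraries labelled CPT2 KO without ES-2 (log2 fold changes -1.16, -0.77 and -0.52, edgeR adjusted p = 4.51e-07, 0.000846 and 0.0383) and 0 of them without ES-1. Of the exonic bases of PFKM, 8.58% are shared with SENP1 on the opposite strand.

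PFKFB enzymes set the level of fructose 2,6-bisphosphate, the activator of phosphofructokinase, and they held both extremes of the glycolysis group. PFKFB4 stood at 172 CPM in ES-1, 17.9 in ES-2, 45.2 in CPT2KO-1 and 22.1 in CPT2KO-2. ES-1 was 9.60-fold above ES-2, the largest such ratio of the 30 members, and CPT2KO-1 was 2.05-fold above CPT2KO-2. The gene was not called in the fit with 4 libraries (edgeR adjusted p = 0.811), without ES-2 (log2 fold change -2.34, SE 0.60, edgeR adjusted p = 0.298) or without ES-1 (0.92, SE 0.53, edgeR adjusted p = 0.989). PFKFB3, with high kinase activity, had 109, 50.4, 81.2 and 57.3 CPM, so that CPT2KO-1 was again above ES-2 and CPT2KO-2. PFKFB2, the heart isoform, was the glycolysis member that was not highest in ES-1, at 46.1, 50.4, 39.6 and 40.8 CPM. Both WT libraries lay above both others for PFKFB2, and the log2 fold change was -0.26 (SE 0.15, edgeR adjusted p = 0.630).

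From triosephosphate isomerase to pyruvate kinase every gene was highest in ES-1. GAPDH, the dehydrogenase of glyceraldehyde 3-phosphate and a common reference gene, had 3397, 1781, 1881 and 2005 CPM in ES-1, ES-2, CPT2KO-1 and CPT2KO-2. ES-1 was 1.91-fold above ES-2, and the other 3 libraries lay close together. PGK1, which makes the first ATP of the pathway, had 2099, 425, 607 and 426 CPM, a ratio of 4.94 between ES-1 and ES-2. Its log2 fold change was -1.29 with 4 libraries (SE 1.04, edgeR adjusted p = 0.773), -2.02 without ES-2 (edgeR adjusted p = 4.95e-11) and 0.28 without ES-1 (edgeR adjusted p = 0.958). For TPI1, which interconverts the triose phosphates, and PGAM1, which moves the phosphate of phosphoglycerate, ES-1 was 1.89- and 2.01-fold above ES-2.

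ENO1, the main enolase, stood at 3444 CPM in ES-1 and at 1494, 1530 and 1525 CPM in ES-2, CPT2KO-1 and CPT2KO-2. The libraries labelled CPT2 KO were thus almost equal to ES-2, with a log2 fold change of 0.032 without ES-1 (SE 0.16, edgeR adjusted p = 0.9997). ENO2, the neuronal enolase, was 2.59-fold higher in ES-1 than in ES-2. PKM, the pyruvate kinase gene of most tissues, had 1701, 678, 676 and 588 CPM. Both WT libraries lay above both others for PKM, though ES-2 and CPT2KO-1 differed by less than 2 CPM.

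ALDOC, an aldolase of brain and other tissues, had 211, 57.9, 52.2 and 54.4 CPM in ES-1, ES-2, CPT2KO-1 and CPT2KO-2. ES-1 was 3.65-fold above ES-2, and the log2 fold change without ES-2 was -1.99 (SE 0.16, edgeR adjusted p = 1.29e-13), the smallest adjusted p of the module in that fit. ALDOA, the ubiquitous aldolase, was counted at 247, 87, 119 and 76 reads only. Of its exonic bases, 53.5% are shared in GENCODE 29 with AC093512.2 on the same strand and AC093512.1 on the opposite strand. No source used here says how reads in shared exons were counted, so the level of ALDOA is uncertain.

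Lactate genes divided into members that were high in ES-1 and members that were not. LDHA, the subunit that favours lactate production, had 2268, 499, 757 and 574 CPM in ES-1, ES-2, CPT2KO-1 and CPT2KO-2. ES-1 was 4.54-fold above ES-2, and ES-2 was the lowest library. The log2 fold change was -1.06 with 4 libraries (SE 0.98, edgeR adjusted p = 0.798), -1.77 without ES-2 (SE 0.16, edgeR adjusted p = 1.39e-11) and 0.41 without ES-1 (SE 0.17, edgeR adjusted p = 0.508). LDHB, the subunit that favours lactate use, had 20.6, 18.3, 22.4 and 22.8 CPM, with both libraries labelled CPT2 KO above both WT libraries (log2 fold change 0.21, SE 0.18, edgeR adjusted p = 0.736). LDHB shares 33.4% of its exonic bases with AC010197.2 on the same strand, so its level is uncertain too.

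The lactate transporters MCT1 and MCT4 are the products of SLC16A1 and SLC16A3. SLC16A1 was lowest in ES-1, at 540 CPM, with 642 in ES-2, 645 in CPT2KO-1 and 690 in CPT2KO-2. The groups did not overlap, but the log2 fold change of 0.17 was not called (SE 0.14, edgeR adjusted p = 0.723). SLC16A3, the hypoxia-inducible exporter, had 16.9 and 4.32 CPM in ES-1 and ES-2 and 15.6 and 4.94 CPM in CPT2KO-1 and CPT2KO-2. It was high in replicate 1 and low in replicate 2 of both genotypes, and its log2 fold change was 1.29 without ES-1 and -0.68 without ES-2 (edgeR adjusted p = 0.9997 and 0.8002). Its exons share 6.04% of their bases with CSNK1D and MIR6787.

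PGM1, which links glucose 6-phosphate with glycogen, had 232, 92.8, 112 and 86.5 CPM in ES-1, ES-2, CPT2KO-1 and CPT2KO-2. It followed the glycolysis genes, with a ratio of 2.50 between ES-1 and ES-2 and a call without ES-2 (log2 fold change -1.22, edgeR adjusted p = 2.4e-07).

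The pentose phosphate genes did not share the excess in ES-1. Over the 5 measured members the ratio of ES-1 to ES-2 ranged from 0.735 to 1.29, with a median of 0.9496, while over the 20 glycolysis genes it ranged from 0.914 to 9.60 with a median of 2.35. PGD, the second dehydrogenase of the oxidative arm, had 462, 430, 397 and 415 CPM in ES-1, ES-2, CPT2KO-1 and CPT2KO-2. TKT, the transketolase of the non-oxidative arm, had 1229, 954, 846 and 955 CPM, and TALDO1, the transaldolase, 177, 186, 194 and 202 CPM. For TKT ES-1 alone stood above the rest, while TALDO1 was lowest in ES-1.

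RPIA, which isomerises ribulose 5-phosphate to ribose 5-phosphate, had 19.8, 26.99, 23.4 and 32.7 CPM, and was thus lower in replicate 1 than in replicate 2 of both genotypes. RPE, the epimerase of the same substrate, ranged from 72.8 to 86.9 CPM, and 23.8% of its exonic bases are shared with KANSL1L on the opposite strand. None of the 5 was called with 4 libraries (edgeR adjusted p = 0.622 to 0.790), without ES-2 (0.0796 to 0.644) or without ES-1 (0.9997 for each). With 4 libraries their log2 fold changes were between -0.28 and 0.25.

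**Figure D2:**
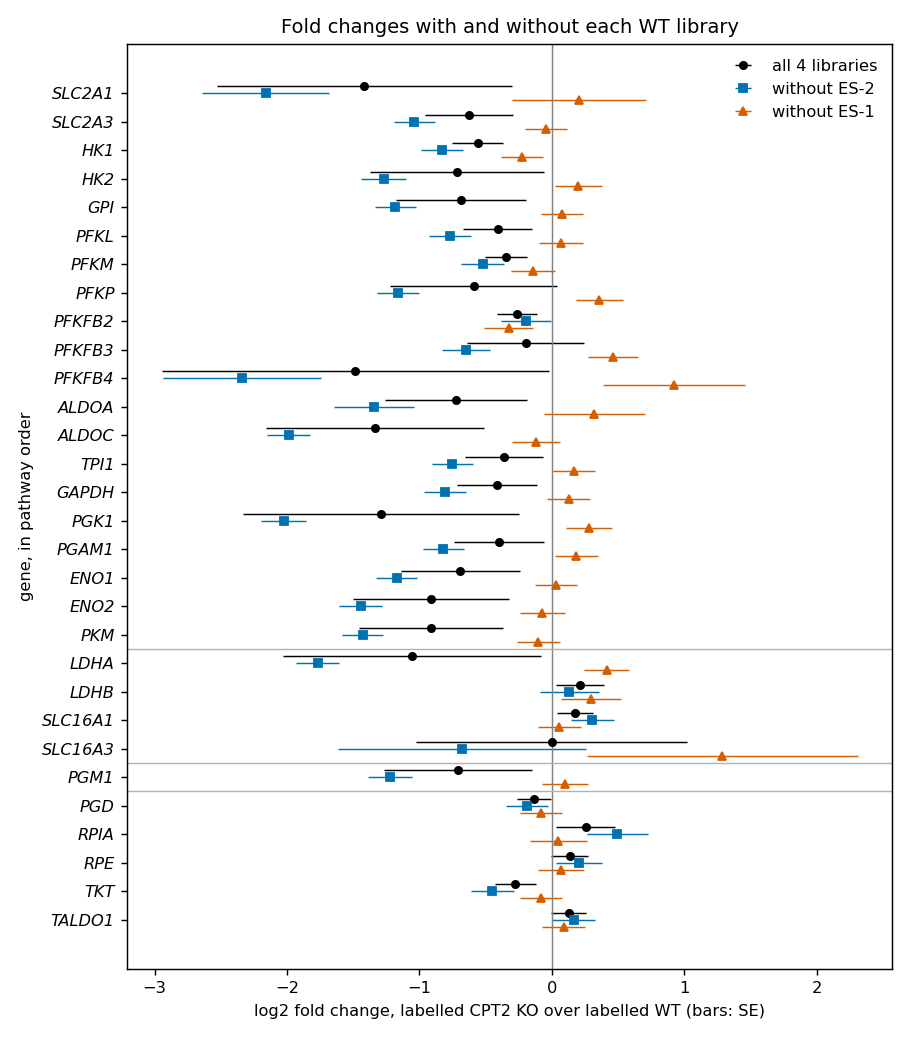
Log2 fold change (label CPT2 KO over label WT) for each gene, in the fit with all 4 libraries (black circles), without ES-2 (blue squares) and without ES-1 (orange triangles), with bars for the SE. The blue squares of the glycolysis genes lie left of 0 and the orange triangles between -0.33 and 0.92, as for PGK1 at -2.02 and 0.28, while the 3 marks of each pentose phosphate gene lie within 0.5 of 0.

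Summed over isozymes, transcript levels per step showed where the excess in ES-1 lay. Phosphoglycerate kinase was 5.55 times as high in ES-1 as in ES-2 on the TPM scale, lactate dehydrogenase 4.84 times, aldolase 4.08 times and the PFKFB step 3.52 times. As counted, ALDOC made up 92.8% to 95.9% of the aldolase step. The level of ALDOA is uncertain, so that share and the aldolase ratio are uncertain too. Hexokinase, at 2.09, had the smallest such ratio among the glycolytic steps. Lactate transport had a ratio of 0.961, and the oxidative and non-oxidative pentose phosphate steps had ratios of 1.21 and 1.24. TPM values sum to the same total in each library, so these ratios are not identical to those in TMM-scaled CPM. The ratios are larger on the TPM scale, at 5.55 against 4.94 in CPM for PGK1 and 1.21 against 1.07 for PGD. TALDO1 was lowest in ES-1 in CPM but highest there in TPM, at 240 against 225 to 229 in the others.

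Within that scale, the most abundant step in every library was glyceraldehyde-3-phosphate dehydrogenase, at 5606 TPM in ES-1 and 2612 to 2750 TPM in the others. Enolase was next, at 2888 TPM in ES-1 and 1035 to 1102 TPM in the others. The PFKFB step was the lowest of the 17 steps in ES-1, ES-2 and CPT2KO-2, at 199, 56.6 and 55.8 TPM. In CPT2KO-1 it stood at 83.9 TPM, and aldolase was the lowest at 73.5 TPM, a rank that depends on the uncertain level of ALDOA. The ratio of ES-2 to the mean of the libraries labelled CPT2 KO lay between 0.789 (lactate dehydrogenase) and 1.12 (pyruvate kinase) over the 17 steps. With 2 libraries per group an exact permutation test cannot give a two-sided p below 0.333, and no step or share was below it.

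**Figure D3:**
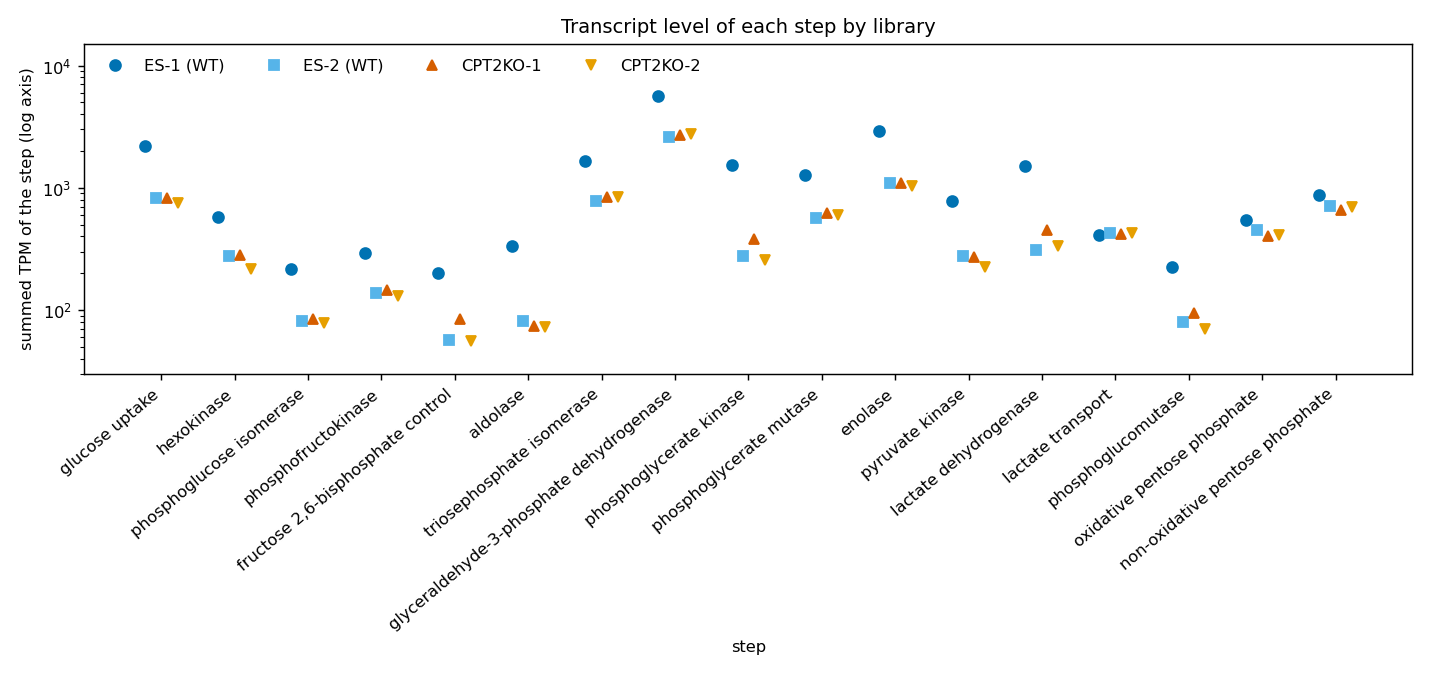
Summed TPM of the genes of each step in each library, on a log axis. ES-1 (circles) lies above the other libraries at every step from glucose uptake to lactate dehydrogenase and at phosphoglucomutase, is the lowest at lactate transport (410 TPM), and lies above the others by a smaller margin at the pentose phosphate steps (548 and 877 TPM, against at most 453 and 710).

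The isozyme makeup of several steps also differed in ES-1. PFKFB4 made up 55.7% of the PFKFB transcripts in ES-1, 18.1% in ES-2, 30.1% in CPT2KO-1 and 21.3% in CPT2KO-2, and PFKFB2 made up 8.98%, 30.7%, 15.9% and 23.6% in the same order. SLC2A1 made up 25.1% of the 2 glucose transporters in ES-1 and 9.69% to 16.8% in the others. For HK2 the share of hexokinase was 40.5% in ES-1, 27.3% in ES-2, 35.3% in CPT2KO-1 and 31.1% in CPT2KO-2. In each of these the libraries labelled CPT2 KO lay between the WT libraries, or, for SLC2A1 in CPT2KO-2, just below ES-2. PFKL kept a share of phosphofructokinase between 29.03% and 30.97% in all 4 libraries, while PFKP took 42.9% in ES-1 and 28.3% to 35.4% in the others. ENO1 made up 90.4% to 92.9% of enolase throughout.

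**Figure D4:**
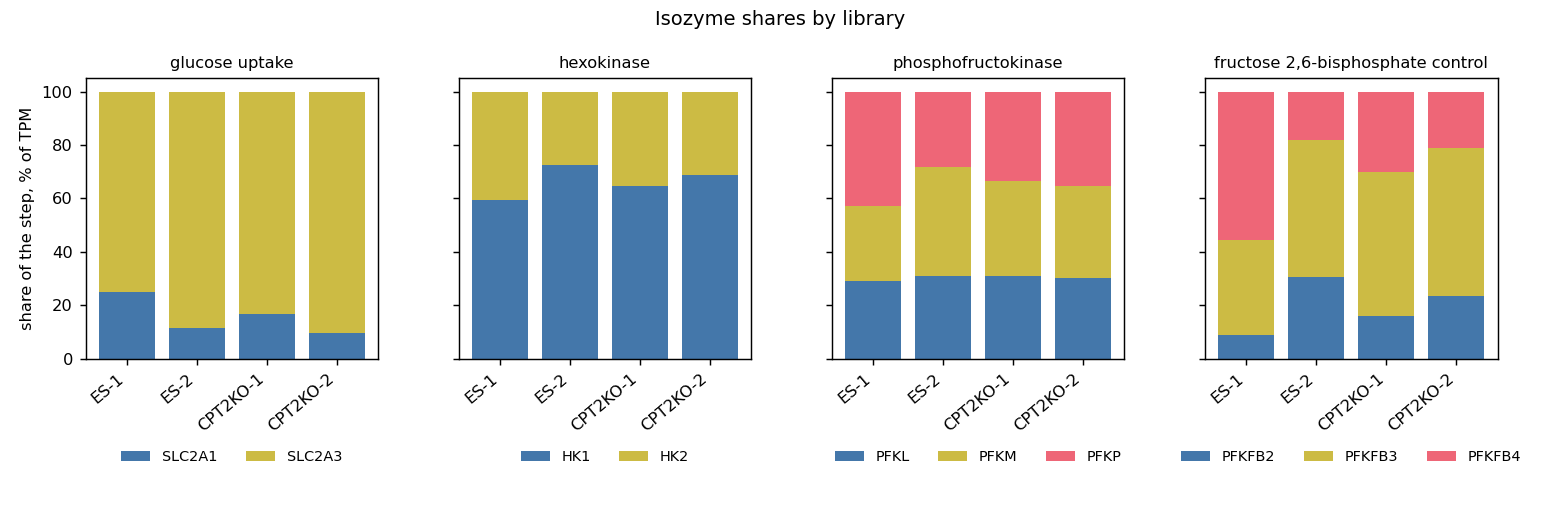
Share of each isozyme in the summed TPM of its step, in percent, for glucose uptake, hexokinase, phosphofructokinase and the PFKFB enzymes, with 1 bar per library. The segments of SLC2A1, HK2, PFKP and PFKFB4 are largest in ES-1, for PFKFB4 at 55.7%, against 18.1% in ES-2.

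The libraries labelled CPT2 KO differed from each other in some of the same genes that set ES-1 apart from ES-2. CPT2KO-1 was above CPT2KO-2 for 19 of 30 members, against 49.9% of all tested genes, and the largest ratios were those of SLC16A3 (3.17), PFKFB4 (2.05) and SLC2A1 (1.83). Across the 30 members, the log2 difference of ES-1 from ES-2 and that of CPT2KO-1 from CPT2KO-2 had a Pearson r of 0.70 and a Spearman rho of 0.74, against 0.17 and 0.21 across all 17564 tested genes. Each point shares the same 2 library pairs, and genes are not independent replicates, so these values are descriptions. The differences themselves were far from equal in size, with medians over members of 1.06 (ES-1 minus ES-2) and 0.071 (CPT2KO-1 minus CPT2KO-2).

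**Figure D5:**
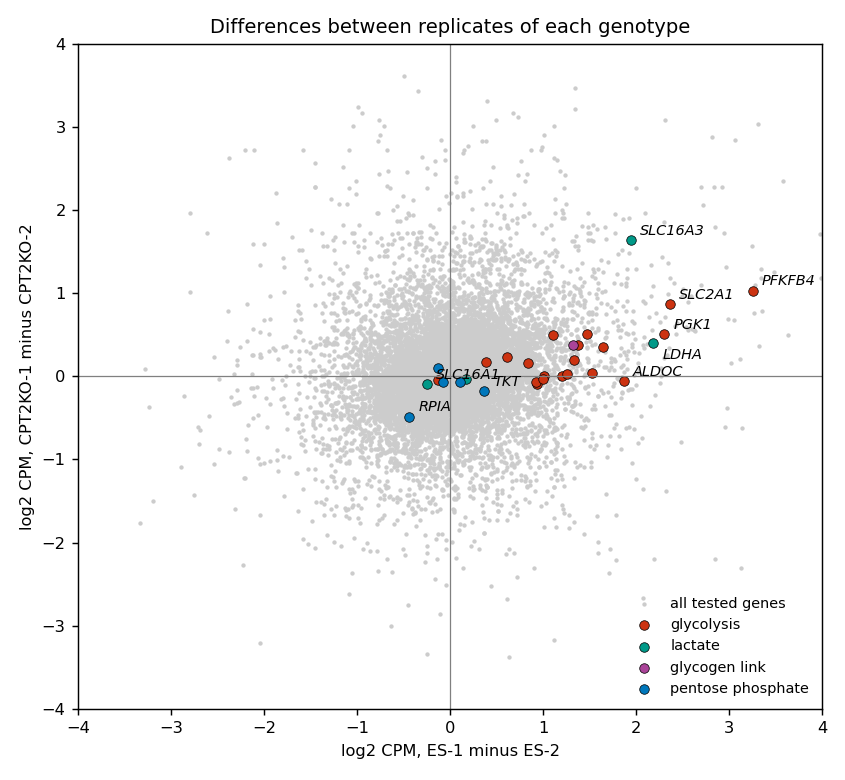
Log2 CPM difference between the WT libraries (horizontal) and between the libraries labelled CPT2 KO (vertical), with 1 point per gene, grey for all tested genes and coloured by branch for the members, and with 4 genes outside the axes. Glycolysis genes other than PFKFB2 lie to the right, with PFKFB4 and SLC2A1 also high on the vertical axis. The lactate gene SLC16A3 is high on both axes, and pentose phosphate genes lie near the centre.

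The summed level of other hypoxia-inducible genes was also highest in ES-1. A list of 20 such genes that are not members summed to 2370 CPM in ES-1, 968 in ES-2, 1112 in CPT2KO-1 and 908 in CPT2KO-2. P4HA1, a collagen prolyl hydroxylase, had 266, 53.7, 83.6 and 50.9 CPM, and BNIP3, a mitophagy receptor, had 593, 116, 199 and 107 CPM. Both had the order of SLC2A1 and HK2, with CPT2KO-1 second, while AK4, a mitochondrial adenylate kinase, ranged from 393 to 468 CPM. With 4 libraries 0 of 19 tested genes of the list were called (median -1.01), and without ES-2 10 were called lower (3.84% of all tested genes were) and 0 higher. Without ES-1 0 were called, and the median was 0.12, with 12 positive and 7 negative. HIF1A, the oxygen-regulated subunit of the factor, stood at 297, 339, 307 and 329 CPM, and its partner ARNT at 77.2, 56.01, 63.1 and 53.2 CPM. MYC, another activator of glycolytic genes, had 85.9, 50.9, 63.0 and 76.9 CPM. The mitochondrially encoded share of counts, 4.15% in ES-1 and at least 7.21% elsewhere, also set ES-1 apart. The part of these in the level of the members was not tested.

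Genes of neighbouring pathways were taken from further lists. With 4 libraries 0 genes were called among 12 tested of other glycolysis, 5 of other lactate, 6 of other pentose phosphate, 8 of glycogen, 14 of pyruvate fate and gluconeogenesis and 8 of glycolysis regulation, with medians from -0.20 to 0.26. Without ES-2, where 3.84% of all tested genes were called lower and 3.02% higher, the called genes numbered 2 lower in other glycolysis, 1 higher in other lactate, 1 lower in other pentose phosphate, 2 lower in glycogen, 2 lower and 1 higher in pyruvate fate and 2 lower in regulation. Named after their values were seen, the lower genes were SLC2A12, SLC2A13, PGM2, GYS1, GBE1, PDK1, PDK3, ARRDC4 and MLXIPL, and the higher ones SLC16A7 and MPC1. BSG, the chaperone of lactate transporters, ranged from 570 to 707 CPM, and EMB, a related chaperone, from 73.7 to 96.6 CPM. ADPGK, an ADP-dependent glucokinase, was lowest in ES-1, at 34.8 CPM against 45.8 to 56.9 in the others.

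Among further genes of those lists, UGP2, which makes UDP-glucose for glycogen, had 767, 578, 691 and 634 CPM, and the glycogen phosphorylases PYGL and PYGB had ranges of 113 to 181 and 66.3 to 78.2 CPM. The pyruvate dehydrogenase genes PDHA1, PDHB and DLAT, which carry pyruvate into acetyl-CoA, had ranges of 123 to 144, 96.8 to 136 and 131 to 147 CPM. PRPS1 and PRPS2, which use ribose 5-phosphate for nucleotides, had ranges of 152 to 166 and 39.7 to 61.6 CPM. BPGM, which makes 2,3-bisphosphoglycerate, ranged from 15.6 to 21.5 CPM, and the transporter gene SLC2A6 from 15.1 to 19.9. LDHD, the D-lactate dehydrogenase, ranged from 1.36 to 3.42 CPM, and PGM2, a phosphopentomutase, from 45.7 to 70.9.

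The bases before the start of transcription of 4 members are printed as examples, chosen after their values were seen: LDHA and PGK1, which were far higher in ES-1, and PGD and TKT, which were not. They were taken from RefSeq (GRCh38.p14), in which 27 of the 30 members have an entry, and only bases outside GENCODE 29 exons are shown. Capitals mark ACGTG or GCGTG on either strand, the core letters of the hypoxia response element.

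LDHA (chr11:18394313-18394387, plus strand): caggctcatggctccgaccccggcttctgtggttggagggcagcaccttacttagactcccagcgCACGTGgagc
PGK1 (chrX:78103998-78104173, plus strand): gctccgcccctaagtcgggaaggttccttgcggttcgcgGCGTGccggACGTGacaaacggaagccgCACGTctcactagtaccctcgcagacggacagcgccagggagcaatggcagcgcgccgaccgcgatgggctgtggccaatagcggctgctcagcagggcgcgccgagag
PGD (chr1:10398814-10399043, plus strand): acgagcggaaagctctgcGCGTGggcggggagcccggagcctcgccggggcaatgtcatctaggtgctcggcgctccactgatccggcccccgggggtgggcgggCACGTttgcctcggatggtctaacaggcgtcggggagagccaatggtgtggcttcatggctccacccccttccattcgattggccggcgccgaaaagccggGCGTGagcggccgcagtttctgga
TKT (chr3:53256053-53256272, minus strand): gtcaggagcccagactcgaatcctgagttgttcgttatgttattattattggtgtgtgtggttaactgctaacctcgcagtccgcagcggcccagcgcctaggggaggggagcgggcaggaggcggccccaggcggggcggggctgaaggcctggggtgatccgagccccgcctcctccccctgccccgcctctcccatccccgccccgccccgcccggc

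In the 250 bases before the start, 14 of 27 members held at least 1 of these letter strings, and so did 43.2% of 35116 promoters. ACGTG was found in 9 of 27 members (18.5% of all promoters) and GCGTG in 9 (32.2%), and a CACGTG, the E-box, counts once on each strand. The PGK1 stretch printed holds 3 matches and the LDHA stretch 2, both from 1 CACGTG. PGD also holds 3, TKT holds none, and SLC2A1 and PKM held none in their whole windows. The whole 250-base window of LDHA held 5 matches, but 175 of its bases are exonic and only 75 are printed. The whole windows of PGK1 and PGD held 3 each. By branch, 11 of 18 glycolysis genes and 2 of 5 pentose phosphate genes held a match. A match is a description of letters, and the printed windows are short.

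The pseudogene rows named after GAPDH held 0.373% to 0.471% as many counts as GAPDH itself, those of TPI1 1.49% to 1.73% and those of LDHA at most 0.0630%. No source used here says how reads with several alignments were treated. GAPDH shares 14.2% of its exonic bases with AC006064.4 on the opposite strand, which had 0 counts in every library. The positions of the genes with the largest ratios of ES-1 to ES-2, on GRCh38 from GENCODE 29, are chromosome 3, 48517684 to 48562015 (minus strand) for PFKFB4, chromosome 1, 42925375 to 42959176 (minus strand) for SLC2A1, chromosome X, 77910739 to 78129296 (plus strand) for PGK1 and chromosome 11, 18394388 to 18408425 (plus strand) for LDHA. LDHA shares no exonic bases with another gene, while 4.73% of PFKFB4, 2.71% of SLC2A1 and 1.76% of PGK1 are shared.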

How the data were processed

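Total RNA from 4 libraries of HUES8 cells was sequenced. The submitters' processing notes name HISAT2 2.1.0, featureCounts 1.6.4 and the build hg38, which is GRCh38. The authors deposited unnormalised counts for each gene symbol beside its length, per the file headers. The strand setting, treatment of multi-mapped reads and annotation release are stated by no source used here. Groups follow the genotype label. A single count equals 0.0489 CPM in the deepest library (20460031 counts) and 0.0592 CPM in the shallowest (16887789 counts).

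Counts were filtered with filterByExpr (17564 genes tested), scaled by TMM and tested with edgeR 4.0.16 in R 4.3.3 (robust quasi-likelihood, group as the only term, Benjamini-Hochberg over all tested genes, threshold 0.05). SEs are the log2 fold change divided by the square root of F. TPM were computed from counts and deposited lengths, and log2 CPM used a prior count of 2. Exact binomial intervals cover counting error only. The fit was tested on simulated data with all 4 libraries. No simulated library was set apart as ES-1 was, and fits with a library left out were not simulated. The members and lists were chosen with earlier results of these data known. All 30 members are named, and of each other pathway list the 3 with the highest mean TPM. Genes of neighbouring pathways that were called without ES-2 are also named, after their values were seen. Gene positions and shared exons come from GENCODE 29, matched by symbol. Alternatives were other scalings and filters, DESeq2 1.42.0, limma-voom (limma 3.58.1), the legacy quasi-likelihood estimate, mitochondrial genes left out, the replicate number as a block and each library left out, with the 17564 genes kept.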

Additional observations from a re-analysis of the deposited data

How the results depend on the processing

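No member was called in either direction with other scalings and filters, DESeq2, limma-voom, the legacy estimate and mitochondrial genes left out. Between replicates, the median log2 CPM of the members had an SD of 0.53, mostly from the gap between ES-1 and ES-2. That SD is larger in size than the median log2 fold change, so a shift below it is no strict criterion. Across these fits the median log2 fold change of the members lay between -0.51 and -0.37, against -0.49 with the settings given above. With each library left out, the number called lower ranged from 0 to 19 and the median from -0.82 to 0.082, and ES-1 and ES-2 were the libraries that moved them. The WT-labelled pair shares replicate numbers with the other pair, but the labels do not say that a number marks a shared culture or day. The log2 deviations of same-numbered libraries had a correlation of 0.17 over 17564 genes. With the replicate block, 1 member (HK1) was called lower (log2 fold change -0.53, edgeR adjusted p = 0.0487), as were 3 of the 19 hypoxia genes and 1 of the 8 glycolysis regulators, and over all genes 233 were called higher and 140 lower, against 63 and 10 without it. SLC16A3 changed sign to 0.14 in limma-voom and to 0.0099 with the replicate block, from -0.0020 with all libraries, and was not called in any of them. Where leaving out a library changed a member's sign, its log2 fold change spanned -2.16 to 0.20 for SLC2A1, -1.27 to 0.20 for HK2, -1.18 to 0.076 for GPI, -0.77 to 0.067 for PFKL, -1.16 to 0.36 for PFKP, -0.65 to 0.46 for PFKFB3, -2.34 to 0.92 for PFKFB4, -1.34 to 0.32 for ALDOA, -0.75 to 0.17 for TPI1. The other spans were -0.81 to 0.13 for GAPDH, -2.02 to 0.28 for PGK1, -0.82 to 0.19 for PGAM1, -1.17 to 0.032 for ENO1, -1.77 to 0.41 for LDHA, -1.09 to 1.29 for SLC16A3, -1.22 to 0.0999 for PGM1, -6.3e-05 to 0.49 for RPIA. Sign changes without ES-1 numbered 16 and those without CPT2KO-2 numbered 3. Over all genes the calls numbered 149 higher and 46 lower in DESeq2 and 101 and 23 with no filter. They numbered 113 and 36 without ES-1, 531 and 674 without ES-2, 31 and 2 without CPT2KO-1 and 81 and 2 without CPT2KO-2. The number of libraries and the gap between ES-1 and ES-2 limit the precision, and the lowest count of a member was 76 (ALDOA in CPT2KO-2).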
